A study of Mus musculus with 2 samples.

Results

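The granzymes, perforin and the serpins that hold granzymes in check were followed in γδ T cells sorted from mouse liver and thymus and profiled by droplet-based single-cell RNA sequencing. The group was set by symbol and held 10 of the 27998 genes listed, namely Gzma, Gzmb, Gzmc, Gzmk and Gzmm, perforin (Prf1), Nkg7, Serpinb9, Serpinb6b and Srgn, and each of them was detected in both libraries. The symbols were chosen because their levels differed among these cells, so that the levels below describe the cells and no gene is tested against another. Both libraries came from untreated wild-type C57BL/6J mice at 8 weeks of age, and hepatic and thymic cells were sorted as positive for CD3e and the γδ T cell receptor. Thymic suspensions alone were first depleted of CD4- and CD8-bearing cells with magnetic beads. One library was made per tissue, so no difference between tissues or between cells could be set against replicate animals, and tissue and library cannot be told apart.

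Cytotoxic lymphocytes store granzymes, which are serine proteases, together with the pore-forming protein perforin in secretory granules, bound to the proteoglycan core protein serglycin. When the granule is released onto a target cell, perforin lets granzymes into the cytosol, where granzyme B cleaves caspases and other substrates, while granzyme A is a tryptase that can also act outside cells. Serpins of clade B in the cytosol of the killer cell inhibit granzymes that leak from its own granules, and Serpinb9 is known as the inhibitor of granzyme B.

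The unit of level is CPM, a gene’s UMIs per 1000000 UMIs counted over the pooled cells, where a UMI is a molecular tag that counts 1 captured transcript. Intervals in parentheses are exact 95% Poisson intervals for CPM and exact 95% binomial (Clopper-Pearson) intervals for shares of cells. They cover counting error only and not the differences between mice. The Poisson intervals also leave out the spread of a gene’s UMIs over the cells of a group. Cells with 800 to 4000 genes and at most 6% mitochondrial UMIs were kept, which left 8075 of 8658 hepatic and 4351 of 4541 thymic barcodes with medians of 2741 and 3271 UMIs. Of these cells, 56 barcodes occurred in both libraries. Cells were clustered without the members and without the other granule genes listed further on, so that the classes were not built on them, and were named from marker genes. The 2441 C1-like thymic cells carried markers of immature γδ thymocytes (Cd24a at 670 CPM, Ccr9 at 1203, Sox4 at 1026), and they fell into cluster 2 with 1465 cells, led by Tnfsf11, Slc35d1 and Hes1, and cluster 5 with 976 cells, led by Tox2, Igfbp4 and Etv5. In the liver, the 3442 C5-like cells were led by Ccl4 and Tyrobp, the 2188 C4-like cells by Socs2, Cd40lg and Il4, and the 264 C7-like cells by Klra7, Klra6 and Klrg1. C3-like cells (precursor-like, 1098 hepatic and 180 thymic) and C6-like cells (interleukin-17 markers, 795 hepatic and 165 thymic) occurred in both tissues. The remaining groups were cycling-like cells (533 thymic, 58 hepatic), 68 interferon-like and 105 C8-like hepatic cells with myeloid transcripts, and cluster 4 (1019 thymic, 53 hepatic), which was led by S1pr1 and Cd200 but also by haemoglobin transcripts and received no name. All 4 T cell markers (Cd3e, Cd3d, Cd3g, Cd247) were detected in both libraries, summing to 3372 CPM in the thymus and 4029 in the liver, and the 3 hepatocyte markers summed to under 5 CPM in each.

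Positions are those of RefSeq on GRCm38.p6, the assembly behind the mm10 build that the submitters named. Gzma (ENSMUSG00000023132, chr13:113093824-113100981) and Gzmk (ENSMUSG00000042385, chr13:113171630-113180965) lie near each other, and Serpinb6b (ENSMUSG00000042842) and Serpinb9 (ENSMUSG00000045827) lie elsewhere on the same chromosome. Gzmb (ENSMUSG00000015437, chr14:56258836-56262334) and Gzmc (ENSMUSG00000079186) end a row of granzyme genes on chromosome 14 that also holds Gzmf, Gzmn, Gzmg, Gzmd and Gzme. Prf1 (ENSMUSG00000037202, chr10:61297751-61304684), Srgn (ENSMUSG00000020077) and Gzmm (ENSMUSG00000054206) lie apart on chromosome 10, and Nkg7 (ENSMUSG00000004612) is on chromosome 7. Because Gzma, Gzmb and Prf1 separate from each other in the results, the RefSeq sequences from 250 bases before to 50 bases after their start sites are printed here 5′ to 3′ on the strand of the gene, with matches to 5 short motifs of either strand in capitals, none of which overlapped.
Gzma, chr13:113100932-113101231, minus strand: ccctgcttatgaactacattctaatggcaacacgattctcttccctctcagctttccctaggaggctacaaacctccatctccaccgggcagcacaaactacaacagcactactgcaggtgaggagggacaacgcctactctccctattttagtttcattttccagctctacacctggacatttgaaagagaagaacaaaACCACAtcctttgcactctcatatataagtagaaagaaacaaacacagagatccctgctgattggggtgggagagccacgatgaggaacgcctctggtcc
Gzmb, chr14:56262285-56262584, minus strand: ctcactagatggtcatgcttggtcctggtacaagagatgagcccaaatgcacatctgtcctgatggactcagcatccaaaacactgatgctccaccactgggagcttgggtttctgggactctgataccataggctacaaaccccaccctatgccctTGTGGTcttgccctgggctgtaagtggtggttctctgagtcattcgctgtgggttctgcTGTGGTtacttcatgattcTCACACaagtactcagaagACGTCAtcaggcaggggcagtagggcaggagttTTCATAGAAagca
Prf1, chr10:61297586-61297885, plus strand: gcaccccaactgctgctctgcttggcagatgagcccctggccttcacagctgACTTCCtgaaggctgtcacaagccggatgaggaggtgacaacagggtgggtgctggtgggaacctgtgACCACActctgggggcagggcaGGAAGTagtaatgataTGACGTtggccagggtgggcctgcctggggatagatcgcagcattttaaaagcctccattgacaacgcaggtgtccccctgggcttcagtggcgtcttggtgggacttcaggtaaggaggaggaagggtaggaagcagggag
The motifs were ACCACA (RUNX), GGAAGT (ETS), TCACAC (T-box), TGACGT (CRE) and TTCNNNGAA (STAT), and they were found in 16.8%, 23.8%, 14.5%, 7.51% and 8.30% of 32851 mouse promoter windows of the same length. The Gzma window held 1 match, ACCACA at base -50. The Gzmb window held ACCACA at -93 and -34, TCACAC at -15, TGACGT at 5 and the STAT letters at 38. The Prf1 window held ACCACA at -130, GGAAGT at -198 and -108, and TGACGT at -92. The start site used for Prf1 lies inside the gene interval given above, so these positions are not counted from the first base of that interval. A sixth motif, the E-box CANNTG, was present in 72.3% of all windows and 3, 2 and 4 times in the Gzma, Gzmb and Prf1 windows, where it is not capitalised. These matches describe the letters of the windows and were not tied to any measurement in the cells.

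**Figure D1:**
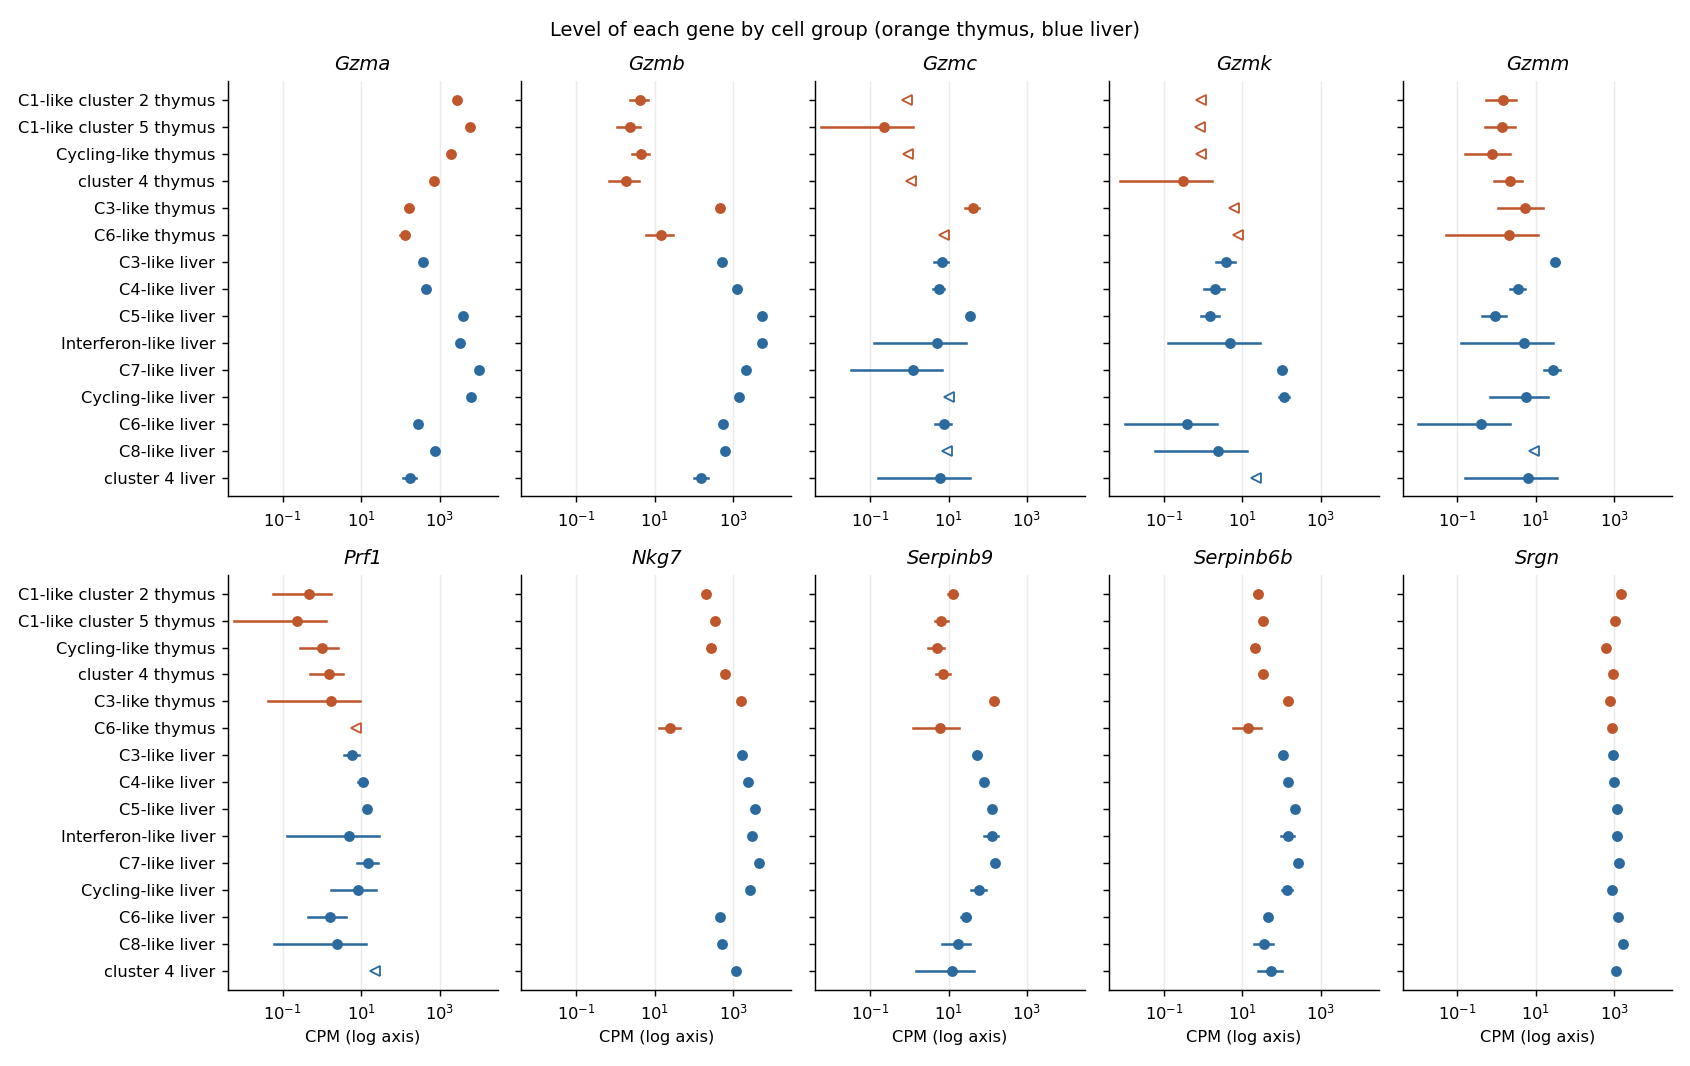
Level of each of the 10 genes in 15 groups of cells, in CPM on a log axis, with thymic groups in orange and hepatic groups in blue. Circles are the CPM of the summed UMIs, lines are exact 95% Poisson intervals and open triangles mark the upper limit where no UMI was counted. Gzma lies high in the thymic C1-like clusters and the hepatic C5-like and C7-like cells, whereas Gzmb and Prf1 are low in C1-like cells and Srgn varies least of the abundant members.

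Gzma was the one granzyme that was abundant in both tissues. In C1-like thymic cells it was at 4358 CPM (4314 to 4403), which placed it 8th among all genes apart from mitochondrial and ribosomal protein genes, next to 4051 (4011 to 4091) in C5-like hepatic cells, where it ranked 16th. C7-like hepatic cells had the highest level of any group at 10232 CPM (10011 to 10457), and hepatic cycling-like cells followed at 6363 (6107 to 6627) with 58 cells. In those 58 cells the B cell marker Cd79a was at 235 CPM, beside 4.30 over the liver, and the 5 myeloid markers summed to 2536 beside 757, with Cd74 at 2487 and Csf1r at 0, and their part in the results for these cells was not tested. The hepatic interferon-like cells stood at 3391 (3141 to 3655) and the thymic cycling-like cells at 1935 (1893 to 1979). In the order of levels, no 2 neighbours among these 6 groups had overlapping intervals, but the spread between animals is not part of them. The order of C1-like and C5-like cells was reversed when every cell was thinned to the same number of UMIs. Their means were then 5.85 and 5.97 Gzma UMIs per cell. Below these 6 groups in CPM came hepatic C8-like cells with 781 (698 to 871) and thymic cluster 4 with 702 (674 to 731). The C4-like class of the liver held 451 (435 to 468), the C3-like class 385 (365 to 406) and the C6-like class 289 (268 to 311). Hepatic cluster 4 at 172 (115 to 249), C3-like thymic cells at 165 (133 to 201) and C6-like thymic cells at 130 (99.6 to 166) were lowest and had overlapping intervals. The intervals of C8-like hepatic cells and thymic cluster 4 overlapped as well.

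The 2 clusters of immature thymic cells differed in Gzma. Cluster 5, with the higher median of 4382 UMIs per cell, held 5859 CPM (5788 to 5931), where Gzma ranked 5th, and cluster 2, with a median of 2728 UMIs, held 2773 (2723 to 2824), a ratio of 2.11 (2.07 to 2.16). At least 2-fold higher levels in cluster 5 were found for 2.32% of 8060 genes and at least 2-fold lower levels for 3.19%. Gzma was the only 1 of the 5 members with enough UMIs that was higher to this extent, and none was lower. The lead was also seen at equal depth. After every cell was thinned to 1500 UMIs, 90.8% of cluster 5 cells (88.8 to 92.5) and 69.6% of cluster 2 cells (67.1 to 71.9) had a Gzma UMI, with medians of 7 and 2 UMIs per cell. Unthinned, the shares were 96.6% and 78.6%. Nkg7 was likewise higher in cluster 5, at 331 against 198 CPM, while Srgn was lower, at 1023 against 1476.

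**Figure D2:**
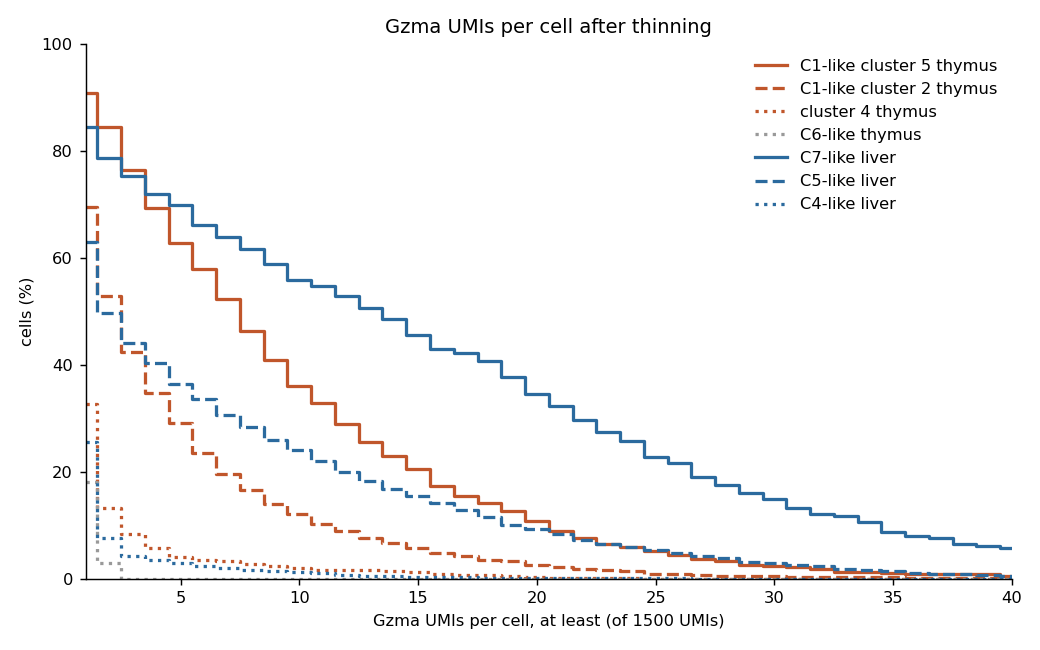
Share of cells (%) with at least the number of Gzma UMIs on the horizontal axis, after each cell was thinned to 1500 UMIs, for 3 hepatic groups (blue), 3 thymic groups (orange) and the C6-like thymic cells (grey). C1-like cluster 5 starts highest at 90.8%, C7-like cells hold the largest share with 10 or more UMIs, 55.9%, and C5-like cells go from 63.0% to 24.1% at 10 or more, against 36.1% of cluster 5.

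Gzma was spread unevenly over the cells of a class. At 1500 UMIs per cell, C5-like hepatic cells had a median of 1 Gzma UMI, a 90th percentile of 19 and a maximum of 83, and the variance over cells was 12.9 times the mean. C7-like cells had a median of 13 and a 90th percentile of 34, and 55.9% of them had 10 or more. In C1-like thymic cells the median was 3, the 90th percentile 15 and the variance 8.50 times the mean. C6-like thymic cells had at most 2 Gzma UMIs, with a variance 1.08 times the mean, close to the value of 1 that random capture of an even low level gives. Both the hepatic and the immature thymic cells thus included cells with and without many Gzma transcripts.

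Gzma was lower in the hepatic C3-like, C4-like and C6-like cells. Unthinned, 38.4%, 39.4% and 35.7% of these cells had a Gzma UMI, at median depths of 3004, 2733 and 2737 UMIs. The comparator was a group of 33 C8-like hepatic cells with no Cd3 UMI, of which 27.3% (13.3 to 45.5) had one at a median depth of 2321, at 120 CPM (60.1 to 216), so that the 3 shares lay inside the interval of the comparator's share, whereas the CPM of the 3 classes lay above its whole CPM interval. A further comparator, 13 hepatic cells with 2 or more B cell markers, held Gzma at 1128 CPM (826 to 1504), above the 3 classes. Its Gzma UMIs came from 2 of the 13 cells. In the 3 classes 70.2%, 73.3% and 67.3% of the thinned Gzma UMIs were in the 10% of cells that held most. The level of C3-like hepatic cells was 205 CPM without the cells of highest doublet score, and in C4-like cells it lay between 299.6 and 740 CPM under other clustering settings. In the thymus the C6-like cells served as comparator, with 18.2% (12.6 to 24.9) of thinned cells against 78.1% (76.4 to 79.7) of C1-like and 32.7% (29.8 to 35.7) of cluster 4 cells. Unthinned, these shares were 30.3%, 85.8% and 47.4%, at median depths of 2778, 3184 and 2935 UMIs.

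Gzma in immature thymic cells was examined next without clustering, by counting Cd24a, the transcript of the CD24 antigen that γδ thymocytes lose as they mature. Of the 4351 thymic cells, 2720 had at least 1 Cd24a UMI, and 67.0% of these were C1-like, 16.9% cycling-like and 14.2% in cluster 4. Gzma was at 3325 CPM (3292 to 3358) in Cd24a-positive and 1677 (1642 to 1712) in Cd24a-negative thymic cells, a ratio of 1.98 (1.94 to 2.03). Among 6 members with enough UMIs, none was at least 2-fold higher in Cd24a-positive cells, beside 1.81% of 9506 genes, and Gzma fell just short of it. Gzmb at 0.185 (0.146 to 0.233) and Serpinb9 at 0.310 (0.235 to 0.409) were at least 2-fold lower, beside 2.15% of the genes. In steps of 0, 1, 2, 3 to 5 and 6 or more Cd24a UMIs, Gzma stood at 1677, 2875, 3602, 3573 and 3325 CPM. Median depth rose over the same steps from 2980 to 4091 UMIs. When cells were thinned to 1500 UMIs and Cd24a was counted anew, the 5 steps gave 2148, 3101, 3484, 3122 and 2065 CPM, so that Gzma was highest at intermediate Cd24a. The step of 6 or more UMIs held 433 cells before thinning and 51 after it. Its 2 levels thus come from unlike sets of cells, and the part of depth in them was not tested.

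The Cd24a-positive cells were higher in Gzma within 3 of the thymic groups. Positive C1-like cells had 4557 CPM (4506 to 4609) and negative ones 3734 (3651 to 3818), at median depths of 3187 and 3157 UMIs. In cluster 4 the levels were 1089 (1035 to 1146) and 426 (397 to 456), at median depths of 3240 and 2808.5 UMIs. In cycling-like cells they were 2107 (2060 to 2155) and 517 (452 to 589), at median depths of 7287 and 5865.5 UMIs. The C3-like cells (181 and 161 CPM) and C6-like cells (64.5 and 142 CPM) had overlapping intervals, with 28 and 21 Cd24a-positive cells. Of all Gzma UMIs in the thymus, 78.3% were in C1-like cells and 16.3% in cycling-like cells, which made up 56.1% and 12.25% of the cells. The cycling-like cells were deeper, with a median of 7066 UMIs beside 3271 over the library. Their Gzma level of 1935 CPM lay below the 2807 CPM (2782 to 2832) of the whole thymic library. In the liver, by comparison, 70.4% of the Gzma UMIs were in C5-like and 14.6% in C7-like cells, which were 42.6% and 3.27% of the cells. The 137 hepatic cells with a Cd24a UMI, of which 69 were C3-like, held Gzma at 636 CPM and Gzmb at 906. In these 137 cells Cd79a was at 135 CPM and the 5 myeloid markers, none at 0, summed to 3765, and their part in the 2 levels was not tested.

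**Figure D3:**
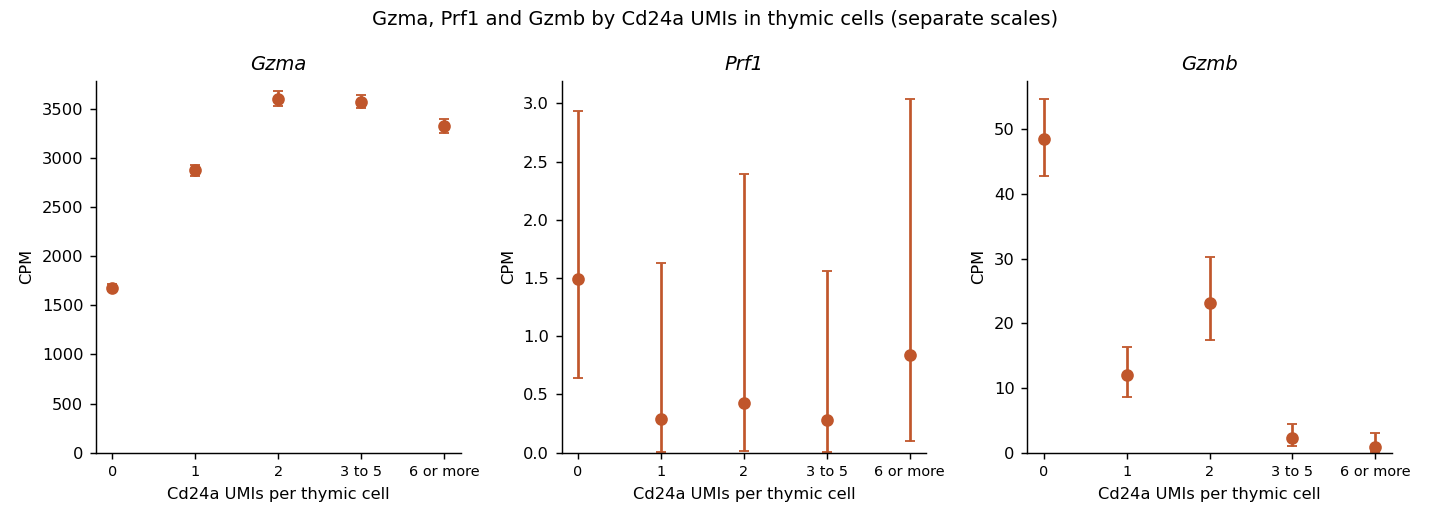
Levels of Gzma, Prf1 and Gzmb (CPM, each on its own scale from 0) in thymic cells grouped by their number of Cd24a UMIs, with exact 95% Poisson intervals. Gzma is lowest, at 1677 CPM, in cells without Cd24a, whereas Prf1 stays under 2 CPM in every step and Gzmb is highest, at 48.5 CPM, in cells without Cd24a.

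Perforin did not accompany Gzma in the immature thymic cells at this depth. Prf1, whose product forms the pore, was counted 3 times in C1-like cells beside 37507 Gzma UMIs, a level of 0.349 CPM (0.0719 to 1.02). In the 2720 Cd24a-positive cells it was counted 5 times, or 0.427 CPM (0.139 to 0.997), and over the steps of Cd24a the counts were 8, 1, 1, 1 and 2. The whole thymic library held 13 Prf1 UMIs in 13 cells, 5 of them in cluster 4, 4 in cycling-like and 1 in C3-like cells. C5-like hepatic cells had 134 Prf1 UMIs, 13.8 CPM (11.6 to 16.3), which is 39.6 times (13.3 to 194) the C1-like level. Prf1 was thus captured rarely in the liver too, and its detection in single cells is limited by that.

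Set against Gzma, the gap was wide. A 3′ library gives 1 UMI per captured transcript whatever its length, but genes are not captured equally well, so a ratio of 2 genes is compared only between groups. For every 1000 Gzma UMIs there were 3.41 (2.85 to 4.03) Prf1 UMIs in C5-like hepatic cells and 0.0800 (0.0165 to 0.234) in C1-like thymic cells, the interval treating Gzma as fixed. At the C5-like ratio of Prf1 to Gzma, the Gzma of C1-like cells would go with 128 Prf1 UMIs, where 3 were counted, and that of Cd24a-positive cells with 132, where 5 were counted. Cycling-like thymic cells would hold 26.6, where 4 were counted. Cluster 4 held 5 against 7.88, and its interval of 0.702 to 5.04 per 1000 overlapped those of C5-like cells and of cycling-like thymic cells (0.140 to 1.31) but not that of C1-like cells. The choice of reference gene decides the size of the gap, because at the C5-like ratio of Prf1 to Nkg7 the C1-like cells would hold 9.04 Prf1 UMIs, and at the ratio to Gzmb 0.0704. In the liver the ratio to Gzma varied as well, with 1.47 (0.761 to 2.57) per 1000 in C7-like cells, 1.29 (0.266 to 3.77) for the cycling-like class, 15.1 (9.34 to 23.1) for the C3-like class and 24.0 (18.7 to 30.4) among C4-like cells.

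**Figure D4:**
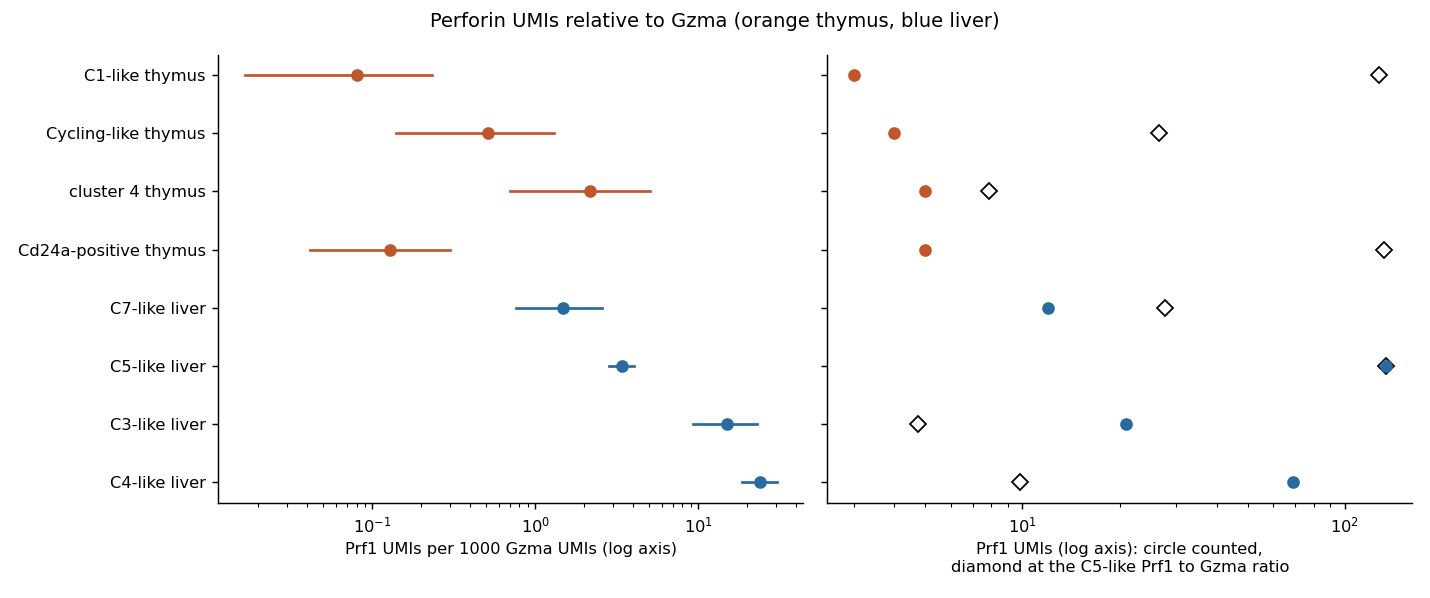
Left, Prf1 UMIs per 1000 Gzma UMIs on a log axis, with 95% Poisson intervals of the Prf1 count. Right, Prf1 UMIs counted (circles) beside the number at the C5-like ratio of Prf1 to Gzma (diamonds), on a log axis. C1-like and Cd24a-positive thymic cells lie lowest, with 3 and 5 UMIs against 128 and 132, and C4-like and C3-like hepatic cells lie above the C5-like ratio.

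Cells that held Gzma were also asked for Prf1 one by one. Among Cd24a-positive thymic cells, Prf1 was found in 4 of 2193 cells with a Gzma UMI, or 0.182% (0.0497 to 0.466), and in 1 of 527 without, or 0.190% (0.00480 to 1.05). In C1-like cells it was found in 3 of 2095 cells with Gzma and 0 of 346 without. The share among C6-like thymic cells was 0 of 165, which allows a share of up to 1.82% when 3 cells are taken as the limit, so these shares are not separable from background. In C5-like hepatic cells, Prf1 was detected in 4.52% (3.73 to 5.43) of 2409 cells with Gzma and 2.13% (1.34 to 3.21) of 1033 without, and after thinning in 2.77% (2.12 to 3.55) and 1.02% (0.544 to 1.74). These intervals did not overlap, and median depths were similar at 2710 and 2639 UMIs. In C4-like cells the shares were 3.24% (2.17 to 4.66) with and 3.09% (2.23 to 4.17) without Gzma, and their intervals overlapped. As hepatic comparators, C6-like cells had Prf1 in 4 of 795 cells, or 0.503%, at a median of 2737 UMIs, and C8-like cells without Cd3 in 1 of 33, which is too few to set a background below these shares.

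Prf1 in C5-like cells was lower where Gzma was absent. At 0, 1 to 4, 5 to 9 and 10 or more Gzma UMIs per thinned cell, Prf1 was at 6.80 (3.62 to 11.6), 16.8 (10.7 to 25.2), 23.5 (13.1 to 38.7) and 19.3 (12.4 to 28.7) CPM, and Gzmb at 4409, 4858, 5775 and 6692. The Prf1 intervals of the first and the last step did not overlap, whereas those of neighbouring steps did. In C1-like thymic cells over the same steps, Prf1 was counted 0, 1, 0 and 1 times, Gzmb stayed between 2.49 and 5.25 CPM, and Nkg7 stood at 238, 261, 289 and 239 CPM. Neighbouring intervals overlapped for these 3 genes, so that none of them showed a rise with Gzma in the pooled immature cells that these counts could resolve. Within the clusters, Nkg7 was 195, 206, 200 and 210 CPM over the steps in cluster 2, with overlapping intervals. In cluster 5 Nkg7 was lower where Gzma was higher, at 452 (346 to 580) in the first and 254 (213 to 301) in the last step. Srgn was higher where Gzma was, at 1135 (1063 to 1211), 1287, 1339 and 1515 (1430 to 1603) CPM, and the first and last intervals did not overlap. The same held within both C1-like clusters, where Srgn stood at 1227 (1144 to 1314) in the first and 1978 (1812 to 2154) in the last step of cluster 2 and at 681 (549 to 836) and 1280 (1186 to 1381) in cluster 5. Cd24a was 841 (779 to 907), 795, 698 and 640 (586 to 698) CPM over the steps, again without overlap of the first and last intervals. Within the clusters this fall was not seen. Cd24a was 945, 983, 942 and 914 CPM in cluster 2, with overlapping intervals. In cluster 5 Cd24a was higher where Gzma was higher, at 326 (237 to 438), 388, 467 and 502 (443 to 566), and the first and last intervals did not overlap.

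Gzmb, the granzyme that cleaves after aspartate, separated the tissues. It was at 2733 CPM over the liver and 21.4 over the thymus, a ratio of 128 (115 to 142). In hepatic cells it was highest in interferon-like cells at 5380 (5064 to 5711) and C5-like cells at 5292 (5246 to 5338), whose intervals overlapped. Next were the C7-like class with 2118 (2018 to 2222), the cycling-like class with 1365 (1248 to 1490) and the C4-like class with 1231 (1204 to 1258). C8-like cells at 628 (554 to 709), C6-like cells at 548 (520 to 578) and C3-like cells at 521 CPM (498 to 545) were near each other, with overlapping intervals between neighbours in this order, against 164 (91.9 to 271) in C8-like cells without Cd3. The 13 hepatic cells with 2 or more B cell markers held Gzmb at 711 (476 to 1021), with a UMI in 7 of them. In the thymus Gzmb was at 3.14 CPM (2.07 to 4.56) in C1-like, 4.46 in cycling-like and 1.82 in cluster 4 cells. C3-like thymic cells were the exception at 456 (403 to 514), with 72.9% of the thymic Gzmb UMIs in 4.14% of the cells, and C3-like hepatic cells stood at 1.14 times (1.00 to 1.30) this level. Without the cells of highest doublet score, Gzmb in C3-like hepatic cells was at 252 CPM.

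How Gzma and Gzmb were joined in single cells differed between the classes. At 1500 UMIs per cell, 77.6% (75.9 to 79.2) of C1-like thymic cells had Gzma without Gzmb and 0.451% (0.225 to 0.806) had both. Of C5-like hepatic cells, 60.6% (58.9 to 62.2) had both, 33.0% (31.5 to 34.6) had Gzmb alone and 2.41% (1.93 to 2.98) Gzma alone. In C7-like cells 70.7% had both and 13.7% Gzma alone, and C4-like cells had Gzmb alone in 43.6% and both in 17.4%. C3-like thymic cells had Gzmb alone in 20.1% (14.5 to 26.7), Gzma alone in 11.7% (7.41 to 17.4) and both in 4.47% (1.95 to 8.62). C3-like hepatic cells had Gzmb alone in 24.5% (21.9 to 27.1), Gzma alone in 14.1% (12.0 to 16.3) and both in 9.49% (7.82 to 11.4), and the intervals of the 2 tissues overlapped for each of these shares. Levels of both genes in C3-like hepatic cells were lower without the cells of highest doublet score. The shares were not recomputed without those cells. In the cycling-like cells the tissues differed, with both transcripts in 0.188% of thymic and 36.2% (24.0 to 49.9) of hepatic cells.

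**Figure D5:**
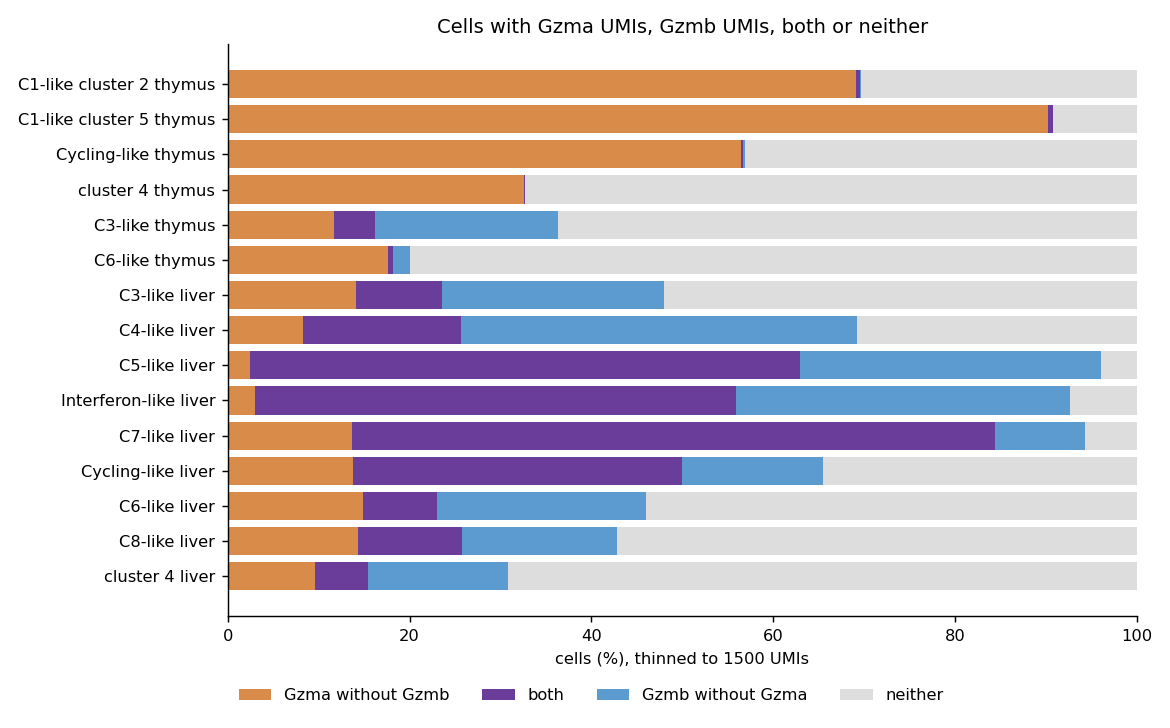
Share of cells (%) with Gzma UMIs alone, both, Gzmb UMIs alone or neither in each group, after thinning to 1500 UMIs per cell. Thymic C1-like and cycling-like cells show almost only Gzma, 60.6% of C5-like and 70.7% of C7-like hepatic cells show both, and C4-like cells show mainly Gzmb.

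The 3 rarer granzymes were at levels far below Gzma and Gzmb in the liver. Gzmc was highest there in C5-like cells, whereas Gzmk and Gzmm were both higher in C7-like than in C5-like cells. Gzmk, a tryptase like granzyme A, was at 102 CPM (80.8 to 126) in C7-like cells, where 46 of 264 cells had a UMI, and at 118 (85.1 to 158) in hepatic cycling-like cells, where 43 UMIs came from 6 cells. C5-like cells held 1.54 CPM, so that the C7-like level was 65.9 times (37.7 to 123) higher, and the thymus held 1 Gzmk UMI. Gzmc was at 34.5 CPM (30.9 to 38.4) in C5-like cells, where 168 cells held it. The 41.1 CPM (26.4 to 61.2) of C3-like thymic cells came from 24 UMIs in 3 cells, of which 22 were in a single Cd24a-positive cell. Gzmm, the granzyme that cleaves after methionine, was highest in C3-like hepatic cells at 31.3 (25.8 to 37.6) and C7-like cells at 26.4 (16.3 to 40.3), with overlapping intervals, and at 0.927 (0.424 to 1.76) in C5-like cells. Over both libraries the remaining genes of the Gzmc row gave 2 UMIs, both of Gzmf. Gzmc and these genes are close in sequence, and reads shared between them may be split or lost in counting.

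Nkg7, a granule membrane protein of cytotoxic lymphocytes, was above 1000 CPM in all hepatic groups except the C6-like and C8-like cells. C7-like cells held 4602 CPM (4454 to 4753), C5-like cells 3500 (3463 to 3537), C4-like cells 2303 (2266 to 2341), C3-like cells 1626 (1585 to 1668) and C6-like cells 452 (426 to 479). In the thymus, C3-like cells held 1546 (1447 to 1651), whose interval overlapped that of C3-like hepatic cells. Cluster 4 followed at 609 (583 to 637), then cycling-like cells at 272 (256 to 289) and C1-like cells at 266 (256 to 278), whose intervals overlapped. C6-like thymic cells were lowest at 24.7 (12.8 to 43.1), so the level of C1-like cells was above that of another class of the same library. At 1500 UMIs, 29.9% (28.1 to 31.8) of C1-like and 3.03% (0.991 to 6.93) of C6-like thymic cells had an Nkg7 UMI, against 49.8% and 6.06% unthinned.

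Both serpins were scarce in the immature thymic cells, where Gzma was high and Gzmb near 0. Serpinb9, the inhibitor of granzyme B, had 155 CPM (128 to 184) in C7-like cells, next to 147 (118 to 182) for the C3-like thymic class and 127 (120 to 134) for the C5-like class, and these 3 intervals overlapped. C4-like cells held 81.0 CPM (74.1 to 88.3), and C1-like cells of the thymus 9.64 (7.68 to 12.0). In C3-like cells the liver was at 0.353 (0.272 to 0.461) of the thymic level. Among C3-like thymic cells, 50.9% (36.8 to 64.9) of 53 cells with Gzmb and 23.6% (16.5 to 32.0) of 127 without had a Serpinb9 UMI at median depths of 3095 and 3077 UMIs, and after thinning 20.5% (9.80 to 35.3) and 14.1% (8.69 to 21.1), with overlapping intervals. Serpinb6b, a further clade B serpin, was likewise highest in C7-like cells, with 256 CPM (222 to 294), ahead of the C5-like class with 215 (206 to 225). The C4-like class had 150 (141 to 160), the thymic C3-like class 146 (116 to 180), the hepatic C3-like class 111 (100.4 to 122) and C1-like cells 29.1 (25.6 to 32.9). Within C1-like cells, the cluster with more Gzma had less Serpinb9, 6.56 against 12.9 CPM, and somewhat more Serpinb6b, 33.3 against 24.6. Both genes have close copies in the same part of chromosome 13. Of Serpinb9b 1 UMI was counted and of Serpinb9c and Serpinb6c 0, whereas Serpinb6a had 1063.

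Srgn, which encodes the serglycin core protein, varied least of the abundant members. It ranged from 620 CPM (596 to 645) in thymic cycling-like to 1683 (1560 to 1813) in C8-like hepatic cells, and it stood at 1243 (1220 to 1267) in C1-like and 1147 (1125 to 1168) in C5-like cells. Over all cells the liver was at 1.08 times (1.06 to 1.10) the thymic level.

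Over all kept cells, 8 of the 10 members were at least 2-fold higher in CPM in the liver, beside 12.1% of the 10869 genes with at least 50 UMIs, and none was at least 2-fold lower, beside 16.9%. These values are among those that chose the members. The ratios of liver over thymus were 128 for Gzmb, 13.3 (7.64 to 25.4) for Prf1, 11.8 (7.87 to 18.4) for Gzmc, 6.92 (6.03 to 7.98) for Serpinb9, 6.74 (6.57 to 6.92) for Nkg7, 5.09 (4.65 to 5.59) for Serpinb6b and 4.62 (3.04 to 7.27) for Gzmm. Gzmk, with 1 thymic UMI, had a ratio of 119 with an interval from 21.1 to 4741. Gzma was at 0.824 (0.814 to 0.834) and Srgn at 1.08, so these 2 alone stayed within 2-fold. Tissues held different cells, so these ratios also carry the makeup of each library.

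Between C5-like hepatic and C1-like thymic cells, 8 members had enough UMIs and 6 of them were at least 2-fold higher in C5-like cells, and none lower, beside 13.6% and 19.4% of 9529 genes, with a median log2 ratio of 2.33 against -0.11 for all genes, each taken after adding 10 CPM to both levels. The exceptions were Gzma at a ratio of 0.930 (0.916 to 0.943) and Srgn at 0.922 (0.898 to 0.947). For Gzma the direction depended on depth. After thinning, the mean was 5.97 Gzma UMIs per cell in C5-like and 5.85 in C1-like cells, so Gzma was not lower in C5-like cells at equal depth. The ratios were 1687 (1159 to 2560) for Gzmb, 13.1 (12.6 to 13.7) for Nkg7, 13.2 (10.6 to 16.7) for Serpinb9 and 7.42 (6.50 to 8.49) for Serpinb6b. Gzmm, with 9 and 12 UMIs, and Gzmk, with 15 and 0, fell short of the minimum. Between C7-like and C5-like cells, 2 of 9 members were at least 2-fold higher in C7-like cells (Gzma at 2.53 and Gzmk), beside 3.29% of 8231 genes. Another 2 were at least 2-fold lower, namely Gzmb at 0.40 (0.381 to 0.420) and Gzmc with 1 UMI, beside 8.63%. C5-like cells exceeded C4-like cells at least 2-fold in 3 of 8 members, and were 2-fold lower in none, beside 2.86% and 2.56% of 8938 genes, with 8.98 (8.64 to 9.33) for Gzma, 4.30 (4.20 to 4.40) for Gzmb and 6.11 (4.32 to 8.87) for Gzmc, whereas Prf1 was at 1.27 (0.946 to 1.73). Between interferon-like and C5-like cells, none of 8 members was at least 2-fold higher, beside 5.77% of 8109 genes, and the 2 that were lower, beside 16.5%, were Prf1 and Gzmc with 1 UMI each.

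Where a class occurred in both tissues, the members were compared within it. In C6-like cells, 5 of 6 members were at least 2-fold higher in the liver, and none lower, beside 6.56% and 2.17% of 5243 genes, including Gzmb at 38.1 (18.4 to 94.9) and Nkg7 at 18.3 (10.4 to 35.5). Beside the 548 CPM of Gzmb in C6-like hepatic cells stood 164 in C8-like hepatic cells without Cd3. In the 13 hepatic cells with 2 or more B cell markers, Gzmb was at 711 (476 to 1021). Nkg7, at 452 CPM in C6-like hepatic cells and with 12 UMIs in the thymic ones, was at 208 (125 to 325) and 711 (476 to 1021) in these 2 comparators. The part of free RNA in these levels was not tested. In cycling-like cells, 4 of 5 were at least 2-fold higher in the liver, and none lower, beside 6.89% and 15.6% of 6549 genes, with 306 (192 to 521) for Gzmb and 3.29 (3.14 to 3.44) for Gzma. In these cells Cd79a was at 235 CPM in the liver and 3.47 in the thymus, the myeloid markers summed to 2536 and 92.7 CPM, and their part in the ratios was not tested. In C3-like cells 2 of 7 were higher, beside 5.13% of 5830 genes, namely Gzma at 2.34 (1.90 to 2.91) and Gzmm at 6.08 (2.03 to 29.9), and Serpinb9 was at least 2-fold lower, beside 3.91%. Without the cells of highest doublet score, Gzma in C3-like cells was at 205 CPM in the liver and 164 in the thymus, which is under 2-fold.

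Other genes of the granule pathway were compared between C5-like and C1-like cells, and for each list the 4 genes with the largest log2 ratio, in either direction and after adding 10 CPM to both levels, are given. All counts of these lists stand beside 13.6% of 9529 genes that were at least 2-fold higher in C5-like cells and 19.4% that were lower. Of the 9 genes for granule enzymes and membrane, 5 were at least 2-fold higher in C5-like than in C1-like cells and 2 lower. Ctsc, the cathepsin that activates progranzymes, was at 149 against 33.2 CPM (ratio 4.50, 3.96 to 5.12), Ctsw at 983 against 81.8, and the cystatin gene Cst7 at 278 against 44.4. Ctsl was lower in C5-like cells, at 11.4 against 92.0 CPM. Of the 10 genes for granule release, 3 were at least 2-fold higher and none lower. Sytl2 was at 42.6 against 14.6 CPM, Stx11, a syntaxin needed for granule fusion, at 20.2 against 4.76, and Unc13d, which primes granules, at 43.7 against 30.6 (ratio 1.43, 1.22 to 1.67). Vamp8 stood at 229 against 127. The list's median log2 ratio was 0.30, against -0.11 for all genes. Of the other clade B serpins, 2 of 9 had enough UMIs, with Serpinb6a at 26.5 and 23.8 CPM and Serpinb1a at 3.09 and 3.60. The 5 other granzymes held 2 UMIs in all.

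Of 4 genes for ligands that kill without granules, 3 were at least 2-fold higher in C5-like cells, beside 13.6% of all genes, and 1 was lower, beside 19.4%. Fasl was at 121 CPM (114 to 128) in C5-like and 1.05 (0.478 to 1.99) in C1-like cells, Tnfsf10 (TRAIL) at 61.2 against 3.14 and Tnf at 30.3 against 2.09, while Lta was at 2.68 against 7.67. Of the 8 regulators listed, 6 were at least 2-fold higher in C5-like cells and 1 lower, beside the same 13.6% and 19.4%. Tbx21, which encodes T-bet, was at 97.9 CPM against 0 UMIs in C1-like cells and was at least 281-fold higher, and Hopx at 41.0 against 0 UMIs at least 118-fold higher, taking 3 UMIs over the C1-like cells as the limit. Il2rb, a receptor chain for interleukins 2 and 15, was at 473 against 13.9, and Id2 at 1069 against 53.3.

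The genes whose levels followed those of Gzma, Prf1 and Gzmb most closely were looked for over the 14 class-by-library groups, among 2442 genes at 100 CPM or more in at least 1 group. These groups share 2 libraries, so the values are descriptions. Gzmb was most like Klre1 (Pearson r = 0.98), Xcl1 (0.97), Klrd1 (0.96), Lrrk1 (0.96) and Ifng (0.95), and Prf1 most like Sytl3 (0.91), Padi2 (0.91), Sipa1 (0.89), Slamf7 (0.88) and Dapk2 (0.88). Prf1 had 134, 69, 21 and 12 UMIs in C5-like, C4-like, C3-like and C7-like hepatic cells and at most 5 in any other group. Its values therefore rest on few UMIs and few groups. For Gzma the nearest were Ppil2 (0.79), Rpa2 (0.78), Papola (0.74), Psmc2 (0.70) and Ntan1 (0.68), so no gene tracked Gzma as closely as Klre1 tracked Gzmb.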

How the data were processed

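Single-cell RNA sequencing counts were analysed from 1 hepatic and 1 thymic library of sorted γδ T cells, made with droplet-based 3′ chemistry that tags each transcript with a UMI. The authors aligned the reads and counted UMIs per gene and barcode with Cell Ranger (version not given in the sources used here) on mm10, and deposited these raw counts as filtered matrices. The submitters' notes also name Seurat 3.0 for their own later steps. The depth was 25040963 UMIs over 8658 hepatic and 17371662 UMIs over 4541 thymic barcodes.

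Cells with 800 to 4000 genes and at most 6% UMIs from mitochondrial genes were kept. Clustering was done in Seurat 5.3.0 under R 4.3.3 on both libraries together, with 2000 variable genes less the members and the 45 genes of the 6 granule lists, 30 principal components and resolution 0.6. A cluster took the name of a marker list when the mean log2 ratio of its markers to all other cells was at least 0.5 and led the next list by 0.2, with at least 3 markers detected. Since names were rebuilt from markers, classes may differ from those of the study. Scrublet in scanpy 1.11.5 called 4 hepatic and 2 thymic doublets and was taken not to have worked, so doublets were kept and the highest scores were removed in an alternative. Cells were thinned to 1500 UMIs for shares of cells, which left out 5 hepatic and 7 thymic cells. Ratios of CPM have exact conditional 95% intervals, and a gene entered a count when both groups together held at least 50 UMIs. With 1 library per tissue no test was run, and leaving out a replicate was not possible. The scripts were tested on simulated data. The members and lists were chosen with earlier results of these data known. Named list genes were the 4 with the largest absolute log2 ratio per list, after adding 10 CPM to both levels, among those with at least 50 UMIs, and the genes most like a member were the 5 with the highest Pearson r. The summed level of the B cell list is not reported here.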

Additional observations from a re-analysis of the deposited data

How the results depend on the processing

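No paired analysis was possible because each tissue had 1 library and no result came from a test. In C1-like thymic cells Gzma, 4358 CPM as reported, moved beyond its counting interval with 20 principal components (4410), without the cells of highest doublet score (4418), as the mean of cells (3894), after thinning to 1500 UMIs (3903) and with a total free of mitochondrial and ribosomal protein genes (6661), and stayed inside it under the other alternatives. In Cd24a-positive thymic cells Gzma, 3325 CPM as reported, moved as the mean of cells (3209), after thinning (3167), with the reduced total (5025) and when at least 2 Cd24a UMIs were asked for (3510). Prf1 in those cells moved to 1.09 CPM after thinning, against 0.427, and the cause was not tested. Cd24a was counted anew after thinning, so the thinned levels come from a smaller set of cells. In that set Prf1 was counted 1, 1, 1 and 0 times at 1, 2, 3 to 5 and 6 or more Cd24a UMIs. Prf1 in C1-like cells ranged from 0.343 to 0.547 CPM, and 8 members were at least 2-fold higher in the liver under every alternative that was run, including a limit of 1.5-fold. Another 31 member levels of at least 100 CPM, each recomputed under 12 alternatives, gave 372 values, of which 252 stayed inside the interval of the reported level and the others lay between 0.484 and 1.64 times that level. Thymic Prf1 rested on 13 UMIs and thymic Gzmk on 1.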
